A study of Mus musculus with 6 samples.

Results

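Expression of the Pcgf and Ring genes, which encode the core of Polycomb repressive complex 1 (PRC1), was examined in mouse neural stem cells (NSC). The set was defined by family membership and not by any measured value: the 6 Pcgf genes, Bmi1 (also named Pcgf4), Pcgf1, Pcgf2, Pcgf3, Pcgf5 and Pcgf6, and the 2 Ring genes, Ring1 and Rnf2, which makes 8 of the 50686 gene identifiers counted. RNASeq was available for 2 NSC cultures from wild-type E16.5 embryos and for 2 cultures labelled NSC Bmi1Over, from E16.5 embryos carrying STOPFloxBmi1;NestinCre. In the latter, Cre is driven by Nestin, a gene of neural progenitors, and removes a stop cassette in front of a Bmi1 transgene. H3K27me3, the histone mark laid down by PRC2, was mapped by ChIPSeq in 1 library of each genotype. The study calls its NSC cultures biologically independent, and its ChIPSeq methods describe the replicates of both genotypes as biological replicas. The p-values measure the spread between these cultures.

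Every PRC1 complex holds a Ring protein, the E3 ligase that places ubiquitin on histone H2A, bound to a Pcgf partner that decides which further subunits can join. Bmi1 and Pcgf2 build the canonical complexes with Cbx and Phc proteins, which read H3K27me3 and compact chromatin, and all Pcgf proteins can build variant complexes with Rybp or Yaf2. Pcgf1, Pcgf3, Pcgf5 and Pcgf6 define the variant complexes PRC1.1, PRC1.3, PRC1.5 and PRC1.6. In neural stem cells, Bmi1 is known for sustaining self-renewal, in part by silencing the Cdkn2a locus.

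Between 18112100 and 61353076 reads were counted on genes per library, with the most in NSC Bmi1Over-labelled replicate 2. The share of reads left unmapped was 11.2% and 13.7% in NSC, against 16.2% and 17.6% in the NSC Bmi1Over-labelled libraries. The neural stem cell markers were present at a summed 6062 and 6718 CPM (counts scaled to the library size after TMM normalisation, the trimmed mean of M-values) in NSC, against 6579 and 6731 CPM in the NSC Bmi1Over-labelled libraries, and none of the 10 passed the test. Neuronal markers summed to between 826 and 955 CPM, most of it Map2. Astrocyte markers summed to 140.4 and 110.5 CPM in NSC and 84.6 and 65.0 CPM in the other cultures. Of these 4 genes only Aldh1l1 passed the test, and Gfap was at 0.770 CPM or less. Markers of the oligodendrocyte lineage summed to 39.7 and 44.6 CPM in NSC, against 24.6 and 60.1 CPM in the NSC Bmi1Over-labelled libraries, and none passed the test. The summed markers of microglia, endothelial cells and mesenchymal cells were at most 3.08 CPM, and the endothelial marker Cldn5 was at 0 in every library.

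Bmi1, the gene the transgene should raise, was counted at 133.3 and 123.5 CPM in NSC, against 118.6 and 112.6 CPM in the NSC Bmi1Over-labelled libraries. Both of the latter values lay under both NSC values. These libraries are therefore named by their label throughout. Whether reads from the transgene would be counted on the mouse gene is not given in the sources used here.

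Levels of different genes were compared per length, as RPKM (CPM divided by the length of exon in kilobases), with all annotated exons of a gene merged. Bmi1 was the most abundant of the 8 genes in every library, at 33.6 and 31.1 RPKM in NSC, against 29.9 and 28.3 RPKM in the NSC Bmi1Over-labelled libraries. These are bulk cultures, in which fewer cells that express a gene and less of its RNA per cell cannot be told apart. Bmi1 stood above between 92.4% and 94.2% of protein-coding genes. Rnf2, which encodes the catalytic subunit Ring1b, followed at 16.4 and 15.8 RPKM in NSC, against 13.7 and 12.5 RPKM in the NSC Bmi1Over-labelled libraries. Ring1, which encodes Ring1a, the other E3 ligase, was at 9.25 and 10.9 RPKM in NSC, against 10.4 and 12.2 RPKM in the NSC Bmi1Over-labelled libraries. Pcgf3 was close to Ring1, at 9.41 and 9.02 RPKM in NSC, against 8.71 and 8.45 RPKM in the NSC Bmi1Over-labelled libraries.

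The other Pcgf genes were less abundant. Pcgf1 was measured at 3.88 and 4.82 RPKM in NSC, against 3.57 and 4.50 RPKM in the NSC Bmi1Over-labelled libraries. Pcgf6 lay at 3.05 and 2.90 RPKM in NSC, against 2.50 and 2.64 RPKM in the NSC Bmi1Over-labelled libraries. Pcgf2, the closest relative of Bmi1, was at 1.77 and 2.25 RPKM in NSC, against 2.38 and 4.51 RPKM in the NSC Bmi1Over-labelled libraries. It thus covered the widest range of the 8, from the level of a gene at percentile 54.5 to percentile 65.0 of protein-coding genes. Pcgf5 was the least abundant in every library, at 0.893 and 0.774 RPKM in NSC, against 0.688 and 0.521 RPKM in the NSC Bmi1Over-labelled libraries.

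**Figure D1:**
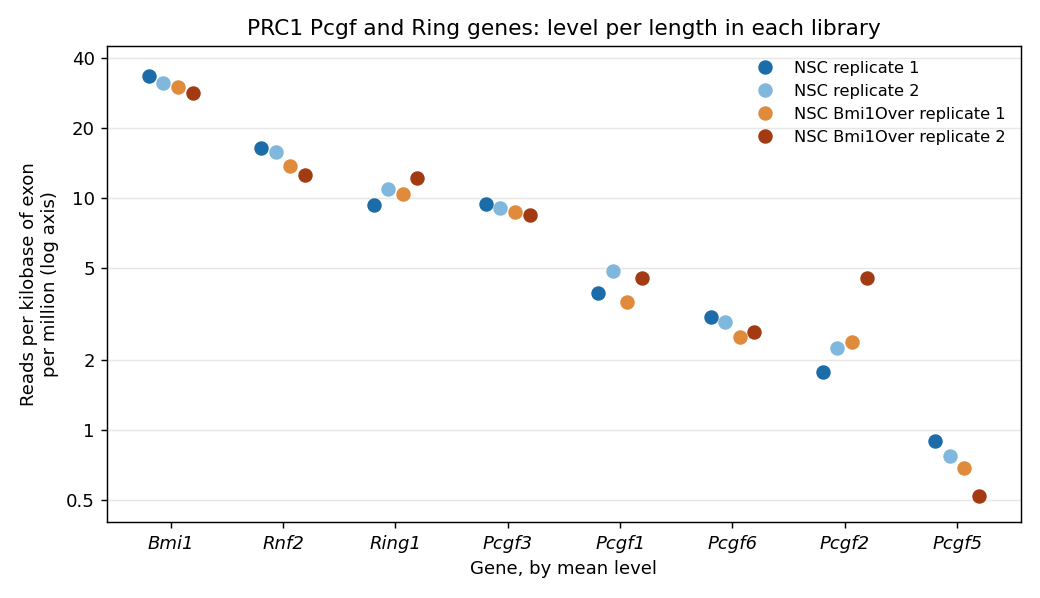
Level of the 6 Pcgf genes and the 2 Ring genes in each of the 4 RNASeq libraries, in RPKM on a log axis. Bmi1 lies on top in every library and Pcgf5 at the bottom, and the Pcgf2 points spread from 1.77 to 4.51.

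In the order of mean levels, Bmi1 exceeded Rnf2 by 1.97 to 2.26 times in the 4 libraries. Rnf2 exceeded Ring1 by 1.03 to 1.77 times, so that the pair was nearly level in NSC Bmi1Over-labelled replicate 2. The ranges of Ring1 and Pcgf3 overlapped: Ring1 was the higher in 3 of 4 libraries, with a ratio of 0.983 to 1.44, and in 4 of 4 with the length of the longest transcript. Pcgf3 was above Pcgf1 by 1.87 to 2.44 times and Pcgf1 above Pcgf6 by 1.27 to 1.71 times. Pcgf6 and Pcgf2 overlapped, with a ratio between 0.585 and 1.72. Pcgf2 exceeded Pcgf5 by 1.98 to 8.65 times. The order of the 8 genes was the same when the length of the longest transcript was used in place of all exons.

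Within the summed level of the 6 Pcgf genes, Bmi1 made up 63.8% and 61.1% in NSC, against 62.6% and 57.9% in the NSC Bmi1Over-labelled libraries. Pcgf3 made up between 17.3% and 18.3% and varied least for its size. The share of Pcgf2 was 3.37% and 4.43% in NSC, against 4.99% and 9.21% in the NSC Bmi1Over-labelled libraries. Bmi1 therefore exceeded Pcgf2, its counterpart in canonical PRC1, 19.0-fold and 13.8-fold in NSC, against 12.5-fold and 6.29-fold in the NSC Bmi1Over-labelled libraries. Pcgf1 contributed 7.38% to 9.48%, Pcgf6 5.24% to 5.80% and Pcgf5 1.06% to 1.70%, or 1.65% to 2.68% with the length of the longest transcript.

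The summed Pcgf level itself was 52.6 and 50.9 RPKM in NSC, against 47.7 and 48.9 RPKM in the NSC Bmi1Over-labelled libraries. The summed Ring level was 25.6 and 26.7 RPKM in NSC, against 24.1 and 24.7 RPKM in the NSC Bmi1Over-labelled libraries. For both sums, the groups did not overlap, where 59.0% of all single genes tested showed no overlap either. Bmi1 made up most of the Pcgf sum. Of the Ring sum, Rnf2 held 63.9% and 59.2% in NSC, against 56.8% and 50.7% in the NSC Bmi1Over-labelled libraries, and Ring1 the rest. These shares are descriptions and were not tested.

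**Figure D2:**
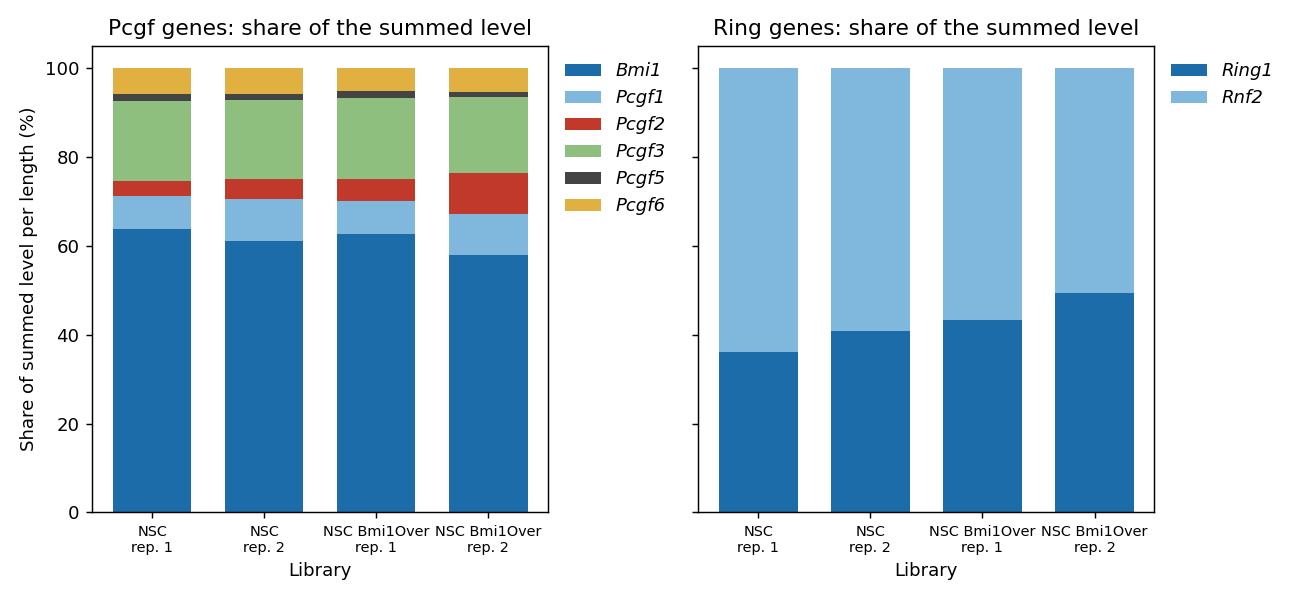
Share of each gene in the summed level per length of the 6 Pcgf genes and of the 2 Ring genes, in percent, for each RNASeq library. Bmi1 takes between 57.9% and 63.8% of the Pcgf sum, and the share of Rnf2 in the Ring sum runs from 63.9% to 50.7%.

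The libraries labelled NSC Bmi1Over were then compared with NSC gene by gene, to ask whether the paralogues of Bmi1 differed with the genotype. None of the 8 genes passed edgeR's quasi-likelihood test at an adjusted p of 0.05, where 2.15% of the 15521 genes tested did, 2.03% as higher and 0.122% as lower, and DESeq2 called 0 of the 8, where it called 11.2% of the 13414 genes that it gave an adjusted p. At an unadjusted p under 0.05, 1 member was higher (Pcgf2) and 2 were lower (Pcgf5 and Rnf2), against 17.0% of all genes higher and 7.22% lower. The median log2 fold change of the members was −0.13, beside −0.01 for all genes tested. The groups did not overlap for 6 members, 1 higher and 5 lower, while 59.0% of all genes tested showed no overlap, 29.0% higher and 30.0% lower. With 2 cultures per group, an exact permutation test of a single gene cannot give a two-sided p below 0.333.

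Pcgf2 (ENSMUSG00000018537, mm10 chr11:97688823-97700497, minus strand) showed the largest difference of the 8 genes with all 4 libraries. That rank was lost without replicate 2 of the NSC Bmi1Over-labelled libraries. Pcgf1 (−0.281), Pcgf5 (−0.279) and Pcgf6 (−0.252) then differed more in size than Pcgf2 (0.248). The Pcgf2 counts were 197 and 201 reads in NSC and 147 and 908 reads in the NSC Bmi1Over-labelled libraries. They amounted to 6.24, 7.95, 8.40 and 15.9 CPM. Both libraries labelled NSC Bmi1Over lay above both NSC libraries, but replicate 1 exceeded the higher NSC library only slightly, and replicate 2 stood apart. The group means were 7.10 ± 1.21 CPM for NSC and 12.1 ± 5.30 CPM for the NSC Bmi1Over-labelled libraries (SD, n = 2 each). The fitted difference was 0.81 on the log2 scale (SE 0.29, 95% interval 0.14 to 1.47), or 1.75-fold, with an adjusted p of 0.145 by edgeR. The replicates labelled NSC Bmi1Over differed from each other by 0.92 on the log2 scale, more than the groups did. Without replicate 2 of the NSC Bmi1Over-labelled libraries the difference was 0.25 (adjusted p = 0.679), and without replicate 1 it was 1.16 (adjusted p = 0.0110), both by edgeR. The summed oligodendrocyte lineage markers were also highest in replicate 2 (60.1 CPM), and their part in the difference was not tested. Without NSC replicate 2 it was 0.98 (adjusted p = 0.0243 by edgeR), also past the threshold, and without a filter on low counts it was 0.79 (adjusted p = 0.00304 by edgeR).

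Rnf2 (ENSMUSG00000026484, chr1:151458004-151500955, minus strand) was counted at 67.5 and 65.2 CPM in NSC, against 56.4 and 51.6 CPM in the NSC Bmi1Over-labelled libraries. Both groups were tight and did not overlap. The group means were 66.4 ± 1.65 CPM for NSC and 54.0 ± 3.36 CPM for the NSC Bmi1Over-labelled libraries (SD, n = 2 each). The log2 fold change was −0.30 (SE 0.12, 95% interval −0.57 to −0.03), with an adjusted p of 0.177 by edgeR. Ring1 (ENSMUSG00000024325, chr17:34020792-34024680, minus strand) leaned the other way, at 30.0 and 35.3 CPM in NSC, against 33.8 and 39.5 CPM in the NSC Bmi1Over-labelled libraries, with overlapping groups. Its log2 fold change was 0.17 (SE 0.14, 95% interval −0.16 to 0.50) and its adjusted p 0.478 by edgeR. It was 0.054 without NSC replicate 1 and 0.050 without replicate 2 of the NSC Bmi1Over-labelled libraries. Without NSC replicate 2 it was 0.29, without replicate 1 of the NSC Bmi1Over-labelled libraries 0.27, and with library size alone 0.021. Whether the genes of this pair differed from each other in their response was not tested. Exons of Rnf2 share 158 bp with Trmt1l on the opposite strand, and counting by strand added 3.01% to the reads of Rnf2.

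Pcgf5 (ENSMUSG00000024805, chr19:36348309-36460970, plus strand) was at 11.3 and 9.77 CPM in NSC, against 8.68 and 6.58 CPM in the NSC Bmi1Over-labelled libraries, on counts of 152 to 376 reads. The groups did not overlap, and the means were 10.5 ± 1.07 CPM and 7.63 ± 1.49 CPM (SD, n = 2 each). The log2 fold change was −0.48 (SE 0.21, 95% interval −0.95 to −0.01), with an adjusted p of 0.197 by edgeR. Without replicate 1 of the NSC Bmi1Over-labelled libraries it was −0.68 (adjusted p = 0.0470), and without replicate 2 it was −0.28 (adjusted p = 0.579), both by edgeR. Exons of Pcgf5 share 60 bp with the antisense gene F530104D19Rik, and counting by strand changed none of its counts. Pcgf3 (ENSMUSG00000033623, chr5:108461232-108506976, plus strand), which shares its partner proteins with Pcgf5, was at 89.8 and 86.1 CPM in NSC, against 83.1 and 80.6 CPM in the NSC Bmi1Over-labelled libraries. Its groups did not overlap either, at a log2 fold change of −0.10 (SE 0.12, 95% interval −0.37 to 0.16) and an adjusted p of 0.600 by edgeR. Per length, Pcgf3 exceeded Pcgf5 10.5-fold and 11.7-fold in NSC, against 12.7-fold and 16.2-fold in the NSC Bmi1Over-labelled libraries. With the length of the longest transcript these ratios ran from 6.66 to 10.2.

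The last of the Pcgf genes were Pcgf1 and Pcgf6, which define PRC1.1 and PRC1.6. Pcgf1 (ENSMUSG00000069678, chr6:83077869-83080855, plus strand) was at 6.40 and 7.95 CPM in NSC, against 5.88 and 7.42 CPM in the NSC Bmi1Over-labelled libraries, and the replicates within a group lay further apart than the groups. Its log2 fold change was −0.09 (SE 0.22, 95% interval −0.59 to 0.41), with an adjusted p of 0.815 by edgeR, and its sign turned, to 0.062 without NSC replicate 2 and to 0.05 without replicate 1 of the NSC Bmi1Over-labelled libraries. Pcgf6 (ENSMUSG00000025050, chr19:47033617-47050906, minus strand) was at 15.3 and 14.6 CPM in NSC, against 12.6 and 13.2 CPM in the NSC Bmi1Over-labelled libraries, without overlap. Its log2 fold change was −0.21 (SE 0.15, 95% interval −0.56 to 0.14), with an adjusted p of 0.411 by edgeR. Bmi1 itself (ENSMUSG00000026739, chr2:18677018-18686629, plus strand) had an interval of −0.43 to 0.13 around its log2 fold change of −0.15, which was −0.098 without NSC replicate 1. Scaling by library size alone put the all-gene median at −0.17, Bmi1 at −0.30, Pcgf3 at −0.25 and Pcgf6 at −0.36. Across the 4 libraries, the unmapped share was higher and the summed astrocyte markers lower in the same order of libraries in which Pcgf2 was higher and Bmi1, Pcgf3, Pcgf5 and Rnf2 were lower, and their part in these differences was not tested.

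**Figure D3:**
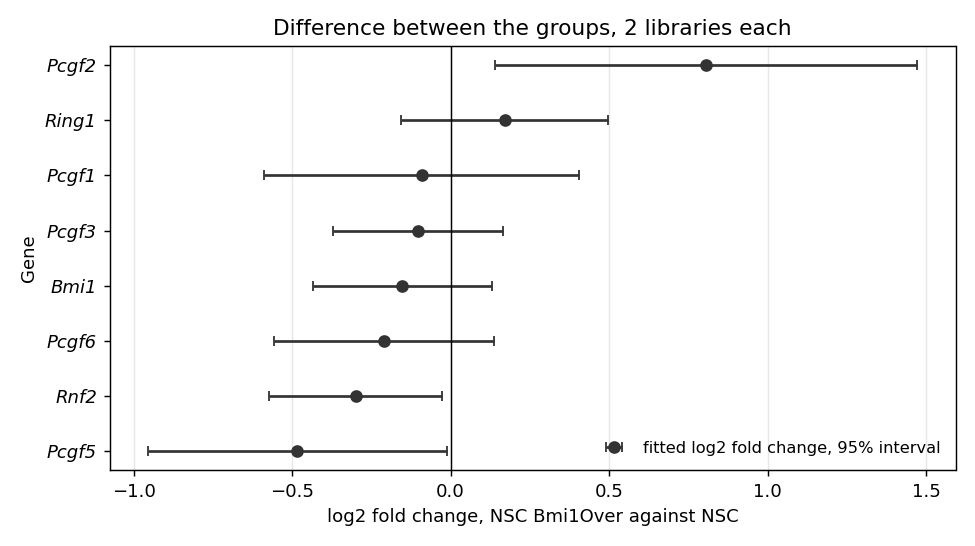
Log2 fold change of each Pcgf and Ring gene in the NSC Bmi1Over-labelled libraries against NSC, with 95% intervals from edgeR's quasi-likelihood fit and n = 2 cultures per group. The interval lies above 0 for Pcgf2 (0.14 to 1.47) and below 0 for Pcgf5 and Rnf2, none of which passed the test after adjustment over all genes.

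The genes whose pattern over the 4 libraries was most like that of Bmi1, by the distance between log2 CPM values centred on each gene's mean, were Dmap1, Ube2w and Rnf214, at 0.0133, 0.0145 and 0.0159 among 13324 protein-coding genes. Among the members, Pcgf3 was the nearest to Bmi1, at a distance of 0.063, with 231 genes nearer. Pcgf2 was the farthest, at 1.16, with 12546 genes nearer. A pattern over 4 libraries is a coarse description. Dmap1, Ube2w, Rnf214 and Pcgf3 each fell in the same order of libraries as Bmi1.

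The other PRC1 subunits and the enzymes that remove ubiquitin from H2A, with their cofactors, were counted in the same fit, as 39 genes in 6 lists. None of the 39 passed edgeR's quasi-likelihood test, by which 2.15% of all genes were called, or DESeq2's test, by which 11.2% were. At an unadjusted p under 0.05, 1 was higher (Cbx6) and 1 lower (Cbx3), against 17.0% and 7.22% of all genes. Their median log2 fold change was −0.06, with 28 genes below 0 and 11 above, while 51.4% of all genes tested were below 0. With library size alone 35 were below 0 and 4 above, and 64.3% of all genes were below 0. Among the 10 canonical subunits, which join Bmi1 or Pcgf2, 4 values were above 0 and 6 below. Cbx7, a reader of H3K27me3, had the highest log2 fold change at 0.40 (SE 0.19, adjusted p = 0.239 by edgeR), and Phc3, a Polyhomeotic subunit, the lowest at −0.32 (SE 0.14, adjusted p = 0.215 by edgeR). Cbx6, another Cbx protein, was at 0.33 (SE 0.14, adjusted p = 0.188 by edgeR). Without replicate 2 of the NSC Bmi1Over-labelled libraries, Cbx7 was at 0.14 and Phc3 at −0.20, and Cbx6 (0.44) and Cbx8 (−0.28) were the highest and the lowest. Without replicate 1, Cbx6 was at 0.20 and Cbx7 at 0.60.

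Rybp and Yaf2, of which variant PRC1 holds either, were at −0.14 and −0.27. With a culture left out in turn, Rybp ranged from −0.27 to −0.0083 and Yaf2 from −0.44 to −0.11, nearest to 0 without replicate 2 of the NSC Bmi1Over-labelled libraries and farthest without replicate 1. The 5 genes of PRC1.1, the partners of Pcgf1, lay between Bcor at −0.02 and Skp1a at −0.16. Of these, Bcor and Bcorl1 changed sign, with Bcor at 0.089 without replicate 2 of the NSC Bmi1Over-labelled libraries, and Bcorl1 at 0.081 without replicate 1 and likewise without NSC replicate 1. Skp1a was at −0.038 without replicate 2 of the NSC Bmi1Over-labelled libraries, where Bcorl1 was the lowest at −0.22, and at −0.30 without replicate 1. Of the 7 partners of Pcgf3 and Pcgf5, 3 were above 0 and 4 below, from Fbrs at 0.23 to Csnk2a1 at −0.19. Fbrs was at 0.095 without replicate 2 of the NSC Bmi1Over-labelled libraries and at 0.35 without replicate 1, and Csnk2a1 at −0.11 without NSC replicate 1. Of the 10 partners of Pcgf6 in PRC1.6, 9 were below 0. Cbx3, a heterochromatin protein, was the lowest at −0.31 (SE 0.13, adjusted p = 0.192 by edgeR). The deacetylase gene Hdac1 was the highest at 0.08, which turned to −0.024 without replicate 1 of the NSC Bmi1Over-labelled libraries. Cbx3 was at −0.42 without that replicate and at −0.21 without replicate 2 of the same group, where E2f6 turned to 0.061. Tfdp1 turned to 0.0050 without NSC replicate 2. The 5 genes that act against PRC1 by removing ubiquitin from H2A, or support such enzymes, ranged from Bap1 at −0.11 to Asxl1 at 0.08. Asxl1 was at −0.078 without replicate 2 of the NSC Bmi1Over-labelled libraries and at 0.22 without replicate 1.

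**Figure D4:**
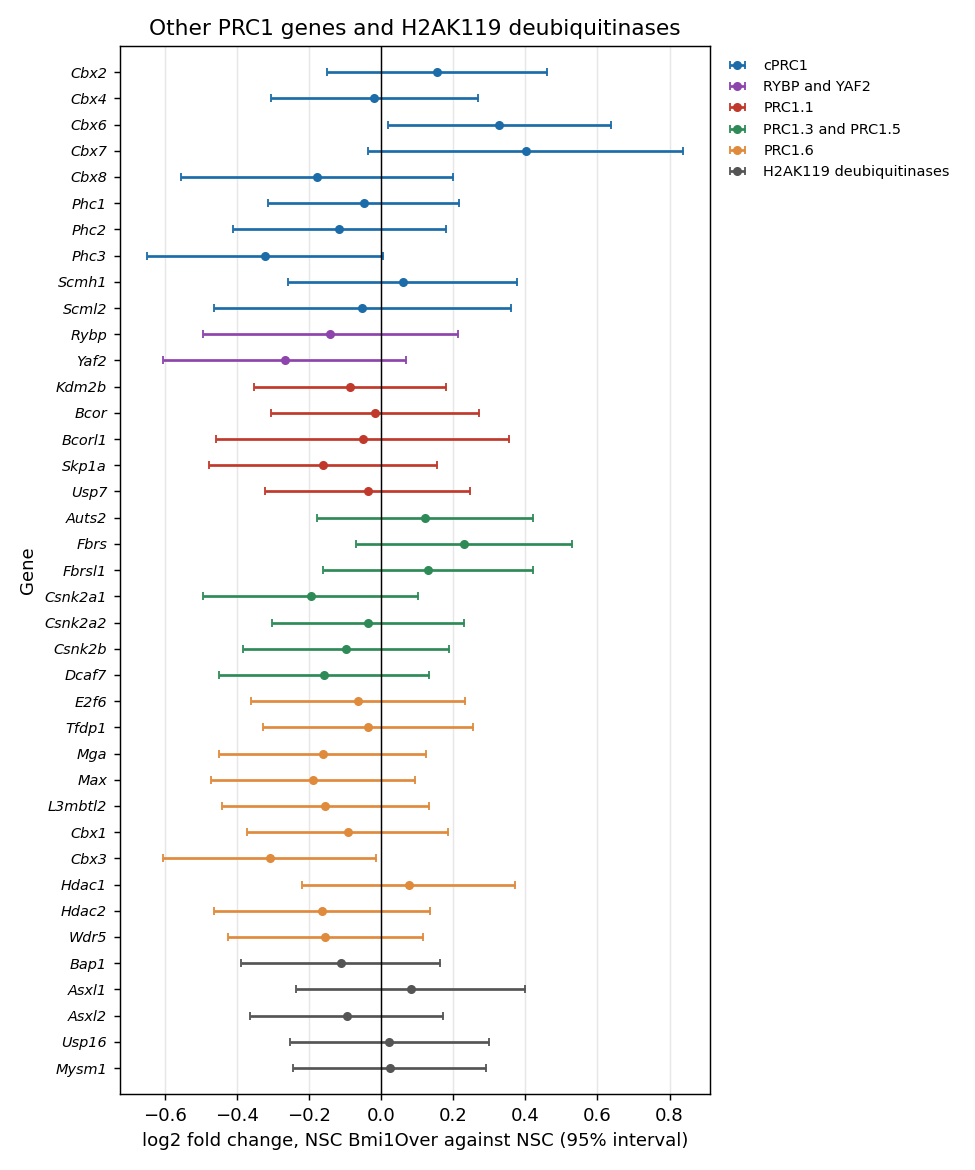
Log2 fold change, libraries labelled NSC Bmi1Over against NSC, of 39 genes, PRC1 subunits and H2A deubiquitinase genes, in 6 lists. Bars are 95% intervals from edgeR's quasi-likelihood fit. The values run from −0.32 for Phc3 to 0.40 for Cbx7, and none passed the test.

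H3K27me3 peaks were searched within 5 kb of any start site of each member. In the NSC list 2 of the 8 members had such a peak (Pcgf1 and Pcgf2), as did 8.83% of the 22028 protein-coding genes. In the NSC Bmi1Over list 1 of the 8 had one (Pcgf2), beside 4.38% of the protein-coding genes. With 1 library per condition, no difference between the lists could be tested, and the NSC Bmi1Over list was the shorter as a whole, at 6810 peaks against 12982.

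Pcgf2 was the only member with a peak inside the gene. In NSC, 4 peaks lay within it, at chr11:97691728-97692500, chr11:97692897-97694050, chr11:97695977-97696324 and chr11:97696846-97699348, with fold enrichments over MACS2's background of 4.42, 4.51, 5.12 and 4.67. They covered 4778 bp, or 40.9% of the gene, where 8.73% of protein-coding genes had any cover. The longest, of 2503 bp, ended 36 bp from an annotated start site. The peak of 773 bp at chr11:97691728-97692500 spanned another annotated start site. In the NSC Bmi1Over list 3 shorter peaks lay in the gene, at chr11:97692603-97692890, chr11:97693447-97693731 and chr11:97698090-97698426, with fold enrichments of 4.47, 4.03 and 4.74. They covered 910 bp, or 7.79%, where 4.59% of protein-coding genes had any cover. By covered share, Pcgf2 stood above 98.6% of protein-coding genes in the NSC list and above 98.4% in the NSC Bmi1Over list. Most of the genes below it had no cover at all, so both percentages lie near their ceiling. All peaks of the lists together covered 11542075 bp and 4807073 bp. Of the 3 NSC Bmi1Over peaks in Pcgf2, the last pair each overlapped an NSC peak, while the first fell in a gap between NSC peaks.

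Pcgf1 had no peak within the gene. Its nearest NSC peak lay 1299 bp away, next to a peak of 12218 bp over Tlx2, a homeobox gene, that came within 2826 bp (fold enrichment 8.91). In the NSC Bmi1Over list the nearest peak, of 5148 bp and also at Tlx2, was 5020 bp away, just past the limit of 5 kb. The nearest peak to Bmi1 lay at 14587 bp in NSC, and at 14528 bp in the NSC Bmi1Over list, both over Spag6. For Ring1 the nearest NSC peak was 17061 bp away and for Pcgf6 33272 bp. For Pcgf5, Pcgf3 and Rnf2 the distance was 287870, 727462 and 2136582 bp in NSC.

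**Figure D5:**
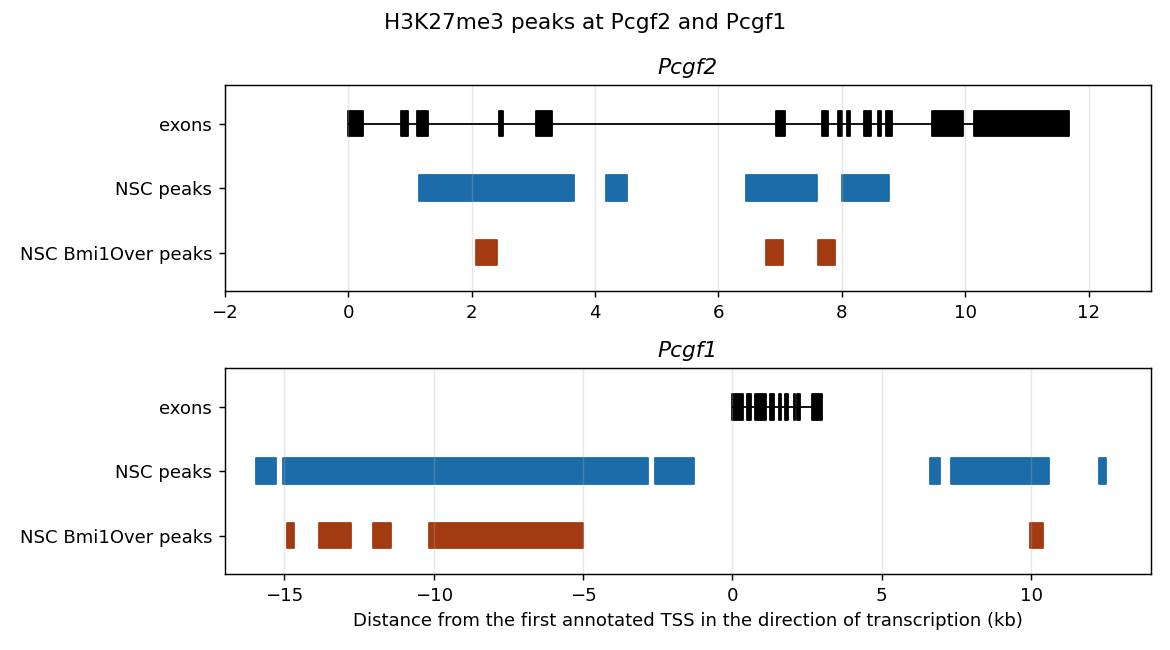
Position of H3K27me3 peaks in the NSC and NSC Bmi1Over lists around Pcgf2 and Pcgf1, as distance from the start of the gene in kb, with exons drawn as boxes. The peaks in NSC cover 40.9% of Pcgf2 and those in NSC Bmi1Over 7.79%, and no peak touches Pcgf1. Of all protein-coding genes, 98.6% and 98.4% had less cover, most of them none.

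One of the NSC Bmi1Over peaks in Pcgf2 that overlapped an NSC peak, of 285 bp at chr11:97693447-97693731 (GRCm38.p6, plus strand), is printed to show the marked sequence, with CG in capitals. Its fold enrichment of 4.03 and −log10 q of 1.96 were at the minimum of that list, and at a −log10 q of at least 3 only 1 of the 3 peaks in Pcgf2 remained. It holds 6 CG, 0.295 of the number its base composition would give.
Pcgf2 peak: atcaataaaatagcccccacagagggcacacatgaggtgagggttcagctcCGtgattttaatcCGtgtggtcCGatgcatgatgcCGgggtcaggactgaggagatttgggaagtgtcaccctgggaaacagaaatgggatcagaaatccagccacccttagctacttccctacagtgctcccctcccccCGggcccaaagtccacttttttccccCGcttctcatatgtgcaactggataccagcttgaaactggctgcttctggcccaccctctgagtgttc

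The promoters of Bmi1 and Pcgf2, the pair that share the canonical complexes, are shown because, of the 7 members with a window (all but Pcgf1), only they carried both of the following motifs. The windows run from 250 bases before to 50 bases after the RefSeq start site in GRCm38.p6. The NSC peaks of Pcgf2 did not reach its window. Capitals mark CACGTG, the palindromic E-box, and GCCATTTT, which fits the core of the YY1 motif, in the order they occur. Both motifs were chosen after the sequences had been read.
Bmi1, chr2:18676768-18677067, plus strand: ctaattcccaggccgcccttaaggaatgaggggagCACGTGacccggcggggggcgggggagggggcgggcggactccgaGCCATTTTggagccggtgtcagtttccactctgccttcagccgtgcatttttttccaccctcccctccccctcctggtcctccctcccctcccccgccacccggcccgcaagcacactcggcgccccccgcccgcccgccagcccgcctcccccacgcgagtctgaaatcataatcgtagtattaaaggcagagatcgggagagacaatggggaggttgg
Pcgf2, chr11:97699599-97699898, minus strand: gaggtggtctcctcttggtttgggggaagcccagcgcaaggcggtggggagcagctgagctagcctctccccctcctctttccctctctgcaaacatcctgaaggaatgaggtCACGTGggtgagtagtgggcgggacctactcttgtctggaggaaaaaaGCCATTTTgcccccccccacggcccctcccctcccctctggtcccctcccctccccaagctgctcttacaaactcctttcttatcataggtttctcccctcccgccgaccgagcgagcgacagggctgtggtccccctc

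In the Bmi1 window, CACGTG lay at −215 to −210 and GCCATTTT at −170 to −163 relative to the start site. In the Pcgf2 window they lay at −137 to −132 and −89 to −82. On either strand, CACGTG occurred in 7.15% and GCCATTTT in 1.54% of the 32851 mouse promoter windows, and both occurred in 62 windows, or 0.189%. These matches describe the letters and not binding. The ratio of observed to expected CG was 0.708 in the Bmi1 window and 0.362 in the Pcgf2 window, beside a median of 0.384 over all windows. Pcgf3, Pcgf6, Ring1 and Rnf2 had 0.737, 0.901, 0.910 and 0.761, so that Pcgf2 had the lowest ratio among the members with a single window.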

How the data were processed

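Trimming of the RNASeq reads with Trim Galore and alignment to mm10 with STAR were done by the authors, who deposited raw counts of reads per gene for 2 NSC cultures and 2 labelled NSC Bmi1Over. As the stranded columns had near-equal totals, the unstranded counts were used. Reads outside single genes were left out, which kept between 65.9% and 72.2%. For ChIPSeq, the authors aligned reads with Bowtie2 2.3.4 and called broad MACS2 peaks per library. Each deposited peak carries a fold enrichment (a ratio), its p-value and q-value as −log10, and a display score, which was not used.

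Of the identifiers, 50462 matched GENCODE vM21, which shares the mm10 build of the files. Genes passing filterByExpr were scaled by TMM and tested in edgeR 4.0.16 (R 4.3.3, quasi-likelihood test, Benjamini-Hochberg adjustment over 15521 genes, called under 0.05). The common biological coefficient of variation was 12.9%. Peaks were placed in Python 3.11.15. Alternatives were DESeq2 1.42.0 and other scalings, filters, strand columns, gene types, replicates, lengths and peak limits. The steps were tested on simulated data. All 8 members are named, and of each other PRC1 list the highest and lowest gene. Members and lists were chosen with earlier results of these data known. Protein alignments were not run.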

Additional observations from a re-analysis of the deposited data

How the results depend on the processing

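The number of genes called, 334 with 94.3% of them higher in the libraries labelled NSC Bmi1Over, was 1496 by DESeq2 (87.0% higher), 537 with library size alone (64.4%), 2356 without a filter (80.3%), and 176 to 2546 with a culture left out. The lowest came without NSC replicate 1, and the highest without replicate 1 of the libraries labelled NSC Bmi1Over. The replicate number as a block gave 3459 (70.3% higher), 2 of the 8 members (Pcgf2 at 0.73, adjusted p = 0.00929, and Rnf2 at −0.30, adjusted p = 0.0442, by edgeR) and 3 of the 39 other genes (Cbx6, Phc3 and Cbx3). Nothing in the labels pairs the cultures, and the same-numbered deviations correlated at 0.169.

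Of the members, 1 was called without a filter (Pcgf2, 0.79, adjusted p = 0.00304 by edgeR) and 0 to 2 with a culture left out. Those were Pcgf2 (0.25 to 1.16) without NSC replicate 2 and, with Pcgf5 (−0.68 to −0.28), without replicate 1 of the libraries labelled NSC Bmi1Over, where Cbx7 brought those called among the 39 from 0 to 1. Pcgf1 ranged from −0.28 to 0.062, its value without NSC replicate 2, and was 0.05 without replicate 1 of the libraries labelled NSC Bmi1Over. Bmi1, Pcgf3, Pcgf6 and Ring1 kept direction and call under all 12 alternatives. With a window of 1 kb, 1 of the 8 members and 1429 of the 22028 protein-coding genes had an NSC promoter peak, and with a −log10 q of at least 3 these were 2 and 1264. The cause of these shifts was not tested. The peak lists give no read depth. The study states read totals per ChIPSeq replicate, not used here, and names read number among the criteria for the replicate kept, but not which replicate that was, so the part of depth in the shorter NSC Bmi1Over list was not tested.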
